A study of Homo sapiens with 9 samples.

Results

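Homologous recombination repairs broken DNA by copying an intact sister, and the Fanconi anemia pathway unhooks covalent links between the DNA strands and hands the resulting breaks to recombination. The genes described here are the 38 rows of the deposited gene table whose names are on a list of such genes, out of 36785 genes in the table. The rule uses gene names and no measured value, but the list was chosen with earlier results of these data known. The measurements come from SKOV3, an established human ovarian cancer line, and every one of the 9 libraries was made from cells that had received lentivirus. In 3 libraries the cells carried the control labelled shNC (genotype NC). The labels call the genotype of another 3 libraries STXBP6 knockdown_1, here sh1, and that of the last 3 STXBP6 knockdown_3, here sh3. STXBP6 encodes a syntaxin-binding protein, and the comparison asks what its knockdown does to gene expression. Nothing in the labels tells if replicate libraries came from different cultures or how long after transduction cells were taken. A p-value here thus covers the spread among these libraries, which may be technical.

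In recombination the broken ends are first sensed and trimmed to single strands (MRE11, RAD50, NBN, RBBP8, EXO1). The BRCA1-BARD1 pair, PALB2 and BRCA2 then load the recombinase, its paralogs stabilise the filament, and RAD54-type motors help it invade the intact duplex. Joint molecules are finally dissolved by BLM with RMI1 and RMI2 or cut by the MUS81-EME1 nuclease and the SLX4 scaffold. In the Fanconi pathway a core ubiquitin ligase with the conjugating enzyme UBE2T marks the FANCD2-FANCI pair at stalled forks. Inherited defects in many of these genes predispose to breast and ovarian cancer or cause Fanconi anemia. Many of them are transcribed mainly in S and G2 phase, when a sister is available as a template.

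Since promoters of cell cycle genes often hold an E2F site, a CHR element or CCAAT boxes, those letters were searched on both strands of the RefSeq promoters (GRCh38.p14, from 250 bases before to 50 bases after the start). The E2F core was taken as any of TTTGGCGC, TTTCCCGC, TTTGCCGC and TTTCGCGC, the CHR element as TTTGAA and the CCAAT box as CCAAT. Matches of different classes may overlap. The table held a promoter for 34 of the 38 genes. Printed here are the stretches before the start that hold the matches, for the 4 genes with at least 3 matches there among the 16 with a promoter that were higher in both knockdown groups, and for FANCM, the gene with the largest change. Each runs 5′ to 3′ in the direction of transcription, and capitals mark the matches.
BLM, a RecQ helicase (chr15:90717193-90717341, plus strand): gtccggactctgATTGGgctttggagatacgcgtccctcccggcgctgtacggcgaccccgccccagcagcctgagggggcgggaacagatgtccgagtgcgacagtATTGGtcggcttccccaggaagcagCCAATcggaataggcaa
FANCC, a core complex subunit (chr9:95317736-95317959, minus strand): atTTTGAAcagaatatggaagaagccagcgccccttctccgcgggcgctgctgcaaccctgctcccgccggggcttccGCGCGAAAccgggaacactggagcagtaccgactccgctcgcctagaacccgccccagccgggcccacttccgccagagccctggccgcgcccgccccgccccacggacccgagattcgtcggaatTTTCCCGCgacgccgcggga
FANCM, a fork translocase that anchors the core complex (chr14:45135711-45135872, plus strand): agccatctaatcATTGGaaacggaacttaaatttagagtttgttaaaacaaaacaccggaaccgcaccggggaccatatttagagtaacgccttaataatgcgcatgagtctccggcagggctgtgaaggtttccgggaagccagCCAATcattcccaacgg
UBE2T, the conjugating enzyme (chr1:202341993-202342101, minus strand): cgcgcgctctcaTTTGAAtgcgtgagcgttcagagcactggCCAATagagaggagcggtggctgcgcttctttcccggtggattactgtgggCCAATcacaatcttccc
XRCC3, a recombinase paralog (chr14:103715468-103715679, minus strand): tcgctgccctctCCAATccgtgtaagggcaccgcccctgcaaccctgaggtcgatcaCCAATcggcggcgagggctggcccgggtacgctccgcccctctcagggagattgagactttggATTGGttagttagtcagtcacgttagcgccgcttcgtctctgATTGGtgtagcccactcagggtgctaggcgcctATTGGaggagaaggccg
The BLM, FANCM and XRCC3 stretches hold CCAAT boxes alone, 5 of them in XRCC3, whereas FANCC has 2 E2F cores and a CHR element and UBE2T a CHR element and 2 CCAAT boxes. The printed genes were picked by their calls. CHEK2, called in neither group, and BRIP1, called in sh1 alone, also held at least 3 matches before the start. Of the 34 promoters 5 (14.7%) held an E2F core, against 5.09% of the 12452 promoters of tested genes and 3.33% of all 27305 in the table. A CHR element stood in 4 (11.8%), against 10.3% of tested genes and 15.4% of all. A CCAAT box stood in 16 (47.1%), against 36.0% of tested genes and 35.7% of all. For comparison, 19 of 37 S phase gene promoters (51.4%) held an E2F core, and 21 of 33 G2 and mitosis gene promoters (63.6%) held a CHR element. These matches are a description of the letters and not of bound sites.

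Library totals ran from 57654447 to 69264400 counts, and the 38 genes took 0.155% to 0.163% of the counts in shNC, 0.187% to 0.189% in sh1 and 0.166% to 0.171% in sh3. Of 10 epithelial and tumour markers of SKOV3, 8 had a mean of at least 1 FPKM over the 9 libraries, among them ERBB2 (755 FPKM), KRT8 (116 FPKM) and PAX8 (40.4 FPKM). MUC16 (0.01 FPKM) and WT1 (0.24 FPKM), also on that list, were near 0. The list differed between groups: 6 of the 10 were lower and 1 higher in sh1 than in shNC, with a median log2 fold change of -0.33, and 1 was lower and 2 higher in sh3. Its summed level was 1143 to 1247 FPKM in shNC, 738 to 769.9 FPKM in sh1 and 1166 to 1214 FPKM in sh3, and its part in the results was not tested. The targeted gene cannot check the labels, because STXBP6 was barely detected. Its counts were 4, 0 and 15 in shNC, 7, 4 and 26 in sh1 and 20, 31 and 18 in sh3, which is not lower in either knockdown group (exact two-sided permutation test on CPM over library totals, p = 0.5 for sh1 and p = 0.1 for sh3, the smallest that 3 against 3 libraries allow). Directions below are therefore those of the libraries labelled sh1 and sh3.

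All 38 genes passed the filter on low counts and were tested, and levels are given as CPM, the counts of a library scaled to a common total through its TMM factor. In sh1 24 genes were higher than in shNC, 0 were lower and 14 did not pass the threshold, an adjusted p under 0.05 over all 21296 genes tested. Over all genes tested 19.9% were called higher and 18.8% lower in that comparison. In sh3 17 were higher, 2 were lower and 19 did not pass, where the shares over all genes were 14.4% and 12.4%. Median log2 fold changes of the 38 genes were 0.37 in sh1 and 0.16 in sh3, against -0.02 and -0.01 over all genes tested. Between the knockdown groups themselves, 18 genes were lower in sh3 than in sh1, 0 were higher and 20 did not pass, beside 13% lower and 12.9% higher over all genes, and the median difference was -0.19. Without adjustment, at p under 0.05, the counts were 26 higher and 1 lower in sh1, 22 and 3 in sh3, and 0 and 21 between sh3 and sh1, and DESeq2 called 1 gene lower in sh1. Leaving out shNC replicate 2 took the number higher in sh3 from 17 to 11, and leaving out shNC replicate 3 gave 26 higher and 1 lower in sh1 and 17 higher and 3 lower in sh3. The comparisons of sh1 and sh3 with shNC share the 3 control libraries.

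The calls fell into 4 patterns. Higher in both groups were 17 genes: BRCA1, BARD1, RAD51AP1, RAD54L, XRCC3, FANCC, FANCF, FANCG, FANCM, UBE2T, FANCD2, FANCI, CHEK1, BLM, SLX4, MUS81 and EME1. Called higher in sh1 and not called in sh3 were 7: BRCA2, RAD54B, FANCA, BRIP1, MRE11, RAD50 and EXO1, and for all of these except BRCA2 the difference between sh3 and sh1 itself passed the test. Called lower in sh3 and not called in sh1 were RBBP8 and ATM. The other 12, called in neither group, were PALB2, RAD51B, RAD51C, RAD51D, XRCC2, FANCE, FANCL, NBN, ATR, CHEK2, RMI1 and RMI2. The plot of all members by library shows the sh1 columns as the most intense, the sh3 columns as paler, and RBBP8 alone in clear blue in all 3 sh3 libraries.

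**Figure D1:**
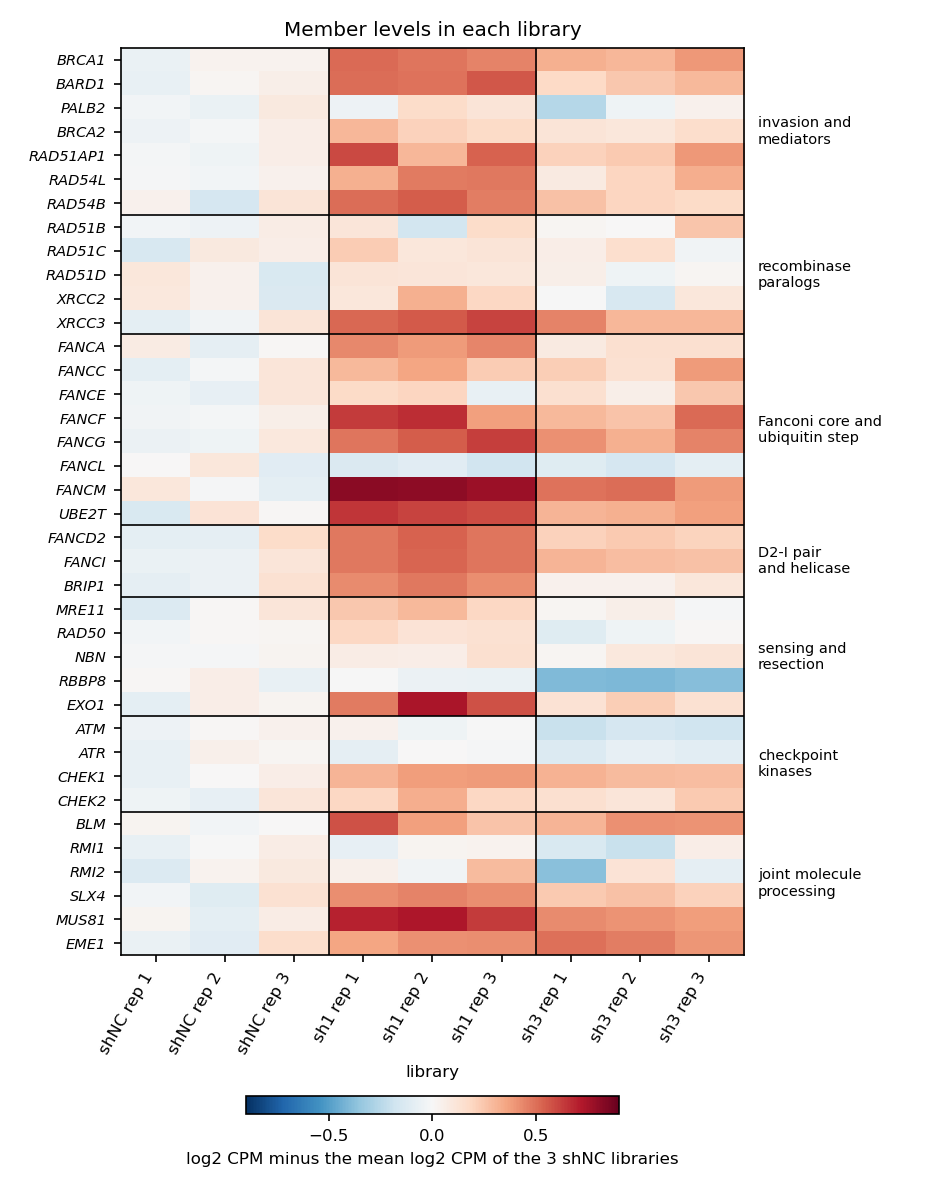
Level of each of the 38 genes (rows, grouped by role) in each of the 9 libraries (columns), as log2 CPM minus the mean log2 CPM of the 3 shNC libraries, where red is higher and blue lower. FANCM and MUS81 are the darkest red in sh1, and RBBP8 is blue in all 3 sh3 libraries.

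Among the strand invasion and mediator genes, 6 of 7 rose in sh1 and 4 of 7 in sh3, and 4 of 7 were lower in sh3 than in sh1. BRCA1 (chr17:43044295-43170245, minus strand in GRCh38, as the table gives it), the tumour suppressor that directs breaks into recombination, stood at 74.0, 78.9 and 79.0 CPM in shNC, 110.2, 108 and 105 CPM in sh1 and 96.4, 95.1 and 101 CPM in sh3. The 3 groups do not overlap, with sh1 highest and shNC lowest. The log2 fold change was 0.48 ± 0.04 (edgeR, adjusted p = 1.7e-06) in sh1 and 0.34 ± 0.04 (edgeR, adjusted p = 6e-05) in sh3, which are 1.39-fold and 1.26-fold. The difference of sh3 from sh1 was -0.14 ± 0.04 (edgeR, adjusted p = 0.02), and it missed the threshold without sh1 replicate 1 or 2, or without sh3 replicate 1 or 2. BRCA2 (chr13:32315086-32400268, plus strand), which loads the recombinase on single strands, was at 30.0, 30.6 and 32.3 CPM in shNC, 38.01, 35.7 and 34.9 CPM in sh1 and 33.6, 33.2 and 34.6 CPM in sh3. All 6 knockdown libraries lie above the 3 controls, but the steps are small: 0.23 ± 0.05 (edgeR, adjusted p = 0.0037) in sh1 and 0.13 ± 0.05 (edgeR, adjusted p = 0.094) in sh3, of which only the first passed. Without shNC replicate 3 the sh3 value passed too, and in limma on log2 FPKM neither did. The sh3 and sh1 values of BRCA2 differed by -0.10 ± 0.05 (edgeR, adjusted p = 0.18), which did not pass.

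BARD1, the partner of BRCA1 in its ubiquitin ligase, rose from 25.4 CPM in shNC to 36.3 CPM in sh1 and 30.0 CPM in sh3, with log2 fold changes of 0.51 ± 0.05 (edgeR, adjusted p = 9.1e-06) and 0.24 ± 0.05 (edgeR, adjusted p = 0.0047). RAD51AP1, which promotes strand pairing, rose by 0.48 ± 0.09 (edgeR, adjusted p = 0.0012) and 0.28 ± 0.09 (edgeR, adjusted p = 0.041). RAD54L, a motor protein that drives invasion, rose by 0.42 ± 0.07 (edgeR, adjusted p = 0.00037) and 0.20 ± 0.07 (edgeR, adjusted p = 0.046). These sh3 calls lie close to the threshold and were lost under 9 of 17 alternative settings for RAD51AP1 and 13 for RAD54L. For RAD51AP1 they include leaving out shNC replicate 1 or 2, sh1 replicate 3 or any sh3 library, and for RAD54L any shNC library, sh1 replicate 2 or 3, or sh3 replicate 2 or 3. RAD54L in sh3 differed from sh1 by -0.22 ± 0.07 (edgeR, adjusted p = 0.034). That call was lost under 8 of 17 settings, among them leaving out sh1 replicate 2 or 3, or sh3 replicate 1 or 2. RAD54B, a relative of RAD54L, was at 18.8, 16.6 and 19.9 CPM in shNC, 26.0, 26.8 and 25.3 CPM in sh1 and 22.1, 21.0 and 20.7 CPM in sh3. Both knockdown groups lie above shNC and sh1 above sh3, with 0.50 ± 0.07 (edgeR, adjusted p = 0.00016) in sh1, 0.21 ± 0.07 (edgeR, adjusted p = 0.054) in sh3 and -0.29 ± 0.07 (edgeR, adjusted p = 0.01) for sh3 against sh1. Its sh3 value passed with DESeq2 and without shNC replicate 3. PALB2, the bridge between BRCA1 and BRCA2, overlapped across all groups at 15.4 to 20.7 CPM, and its values were 0.08 ± 0.09 (edgeR, adjusted p = 0.53) and -0.08 ± 0.09 (edgeR, adjusted p = 0.57).

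Of the 5 recombinase paralogs only XRCC3 passed the test, and it rose in both groups. That is 20% of them, beside 19.9% of all genes tested called higher in sh1 and 14.4% in sh3. Its levels were 25.6, 26.6 and 29.5 CPM in shNC, 38.9, 39.9 and 41.5 CPM in sh1 and 37.0, 33.5 and 33.4 CPM in sh3, so that the 3 groups do not overlap. The log2 fold changes were 0.56 ± 0.06 (edgeR, adjusted p = 2.5e-05) and 0.35 ± 0.06 (edgeR, adjusted p = 0.0016), and the difference of sh3 from sh1 was -0.21 ± 0.06 (edgeR, adjusted p = 0.029), which missed the threshold without sh1 replicate 2 or 3 or sh3 replicate 2 or 3. The other 4, RAD51B, RAD51C, RAD51D and XRCC2, had log2 values of 0.04 to 0.20 in sh1 and -0.01 to 0.10 in sh3, and none passed the test. For RAD51C, RAD51D and XRCC2 every sh1 library lay above every shNC library, as for 24.6% of all genes tested. XRCC3 acts together with RAD51C in one complex, while RAD51B, RAD51C, RAD51D and XRCC2 form another. RAD51C was at 39.1 to 46.0 CPM in shNC, 46.4 to 50.7 CPM in sh1 and 42.3 to 48.1 CPM in sh3, and its sh1 value was 0.15 ± 0.07 (edgeR, adjusted p = 0.12).

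In the Fanconi core complex and its ubiquitin step, 6 of 8 genes rose in sh1 and 5 of 8 in sh3. UBE2T (chr1:202331544-202341984, minus strand), the conjugating enzyme that works with the core ligase, was at 22.2, 26.6 and 24.7 CPM in shNC, 38.1, 37.2 and 36.6 CPM in sh1 and 30.3, 30.5 and 31.6 CPM in sh3. The groups do not overlap, and its rise of 0.61 ± 0.06 (edgeR, adjusted p = 1.2e-05) in sh1 was 1.52-fold, against 0.33 ± 0.06 (edgeR, adjusted p = 0.0023) in sh3. FANCG, a scaffold subunit of the core, was at 47.0, 47.5 and 52.3 CPM in shNC, 68.4, 71.2 and 75.2 CPM in sh1 and 64.9, 61.1 and 66.6 CPM in sh3. Both knockdown groups lie above shNC, with 0.55 ± 0.05 (edgeR, adjusted p = 7.9e-06) and 0.39 ± 0.05 (edgeR, adjusted p = 0.00023), and the difference between them of -0.16 ± 0.05 (edgeR, adjusted p = 0.051) did not pass, though it did without shNC replicate 3 or sh1 replicate 1. FANCF, an adaptor within the core, was at 6.61, 6.67 and 7.03 CPM in shNC, 10.4, 10.7 and 8.72 CPM in sh1 and 8.27, 8.07 and 9.65 CPM in sh3. All knockdown libraries lie above the controls but sh1 replicate 3 sits inside the sh3 range, and the values were 0.56 ± 0.12 (edgeR, adjusted p = 0.0022) and 0.36 ± 0.12 (edgeR, adjusted p = 0.04). The sh3 call was lost under 11 of 17 alternatives, among them leaving out any 1 of the 3 shNC libraries, sh1 replicate 1, or sh3 replicate 1 or 3.

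FANCA, the subunit most often mutated in Fanconi anemia, was at 67.6, 60.8 and 64.9 CPM in shNC, 86.8, 83.8 and 87.3 CPM in sh1 and 68.2, 71.2 and 71.0 CPM in sh3. The sh1 libraries stand clear of the rest, while sh3 lies just above the highest control. Its log2 fold change was 0.42 ± 0.04 (edgeR, adjusted p = 1.2e-05) in sh1 and 0.12 ± 0.04 (edgeR, adjusted p = 0.059) in sh3, and sh3 differed from sh1 by -0.29 ± 0.04 (edgeR, adjusted p = 0.00041). The sh3 value of FANCA passed with DESeq2 and without shNC replicate 1. FANCC rose in both groups, by 0.29 ± 0.07 (edgeR, adjusted p = 0.0066) and 0.25 ± 0.07 (edgeR, adjusted p = 0.023), and its sh3 call was lost without shNC replicate 1 or 2 or sh3 replicate 3. In limma on log2 FPKM FANCC passed in neither group. FANCE, which links the core to FANCD2, had values of 0.10 ± 0.10 (edgeR, adjusted p = 0.49) and 0.15 ± 0.10 (edgeR, adjusted p = 0.33) with overlapping groups.

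FANCL, the catalytic subunit of the ligase, was the exception of the core, with shNC at 57.3 to 66.0 CPM, sh1 at 54.5 to 57.5 CPM and sh3 at 55.4 to 57.9 CPM. Its log2 fold changes of -0.14 ± 0.05 (edgeR, adjusted p = 0.054) and -0.12 ± 0.05 (edgeR, adjusted p = 0.11) did not pass, although both passed without shNC replicate 3. FANCM had the largest fold change of the 38 genes in sh1 but the lowest level per length, and is named for that after its values were seen. It was at 6.79, 6.28 and 5.95 CPM in shNC, 11.1, 11.1 and 10.8 CPM in sh1 and 8.88, 8.98 and 8.27 CPM in sh3. The groups do not overlap, with 0.79 ± 0.10 (edgeR, adjusted p = 4e-05) in sh1, or 1.73-fold, 0.46 ± 0.10 (edgeR, adjusted p = 0.0038) in sh3, and -0.33 ± 0.09 (edgeR, adjusted p = 0.023) for sh3 against sh1. That last difference missed the threshold without any 1 of the 3 sh1 libraries or without sh3 replicate 1 or 3. The sh3 call of FANCM against shNC was lost in limma with a pseudocount of 0.1.

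The FANCD2-FANCI pair, the substrate of the core ligase, rose in both knockdown groups. FANCD2 was at 49.7, 49.9 and 59.2 CPM in shNC, 73.2, 76.4 and 73.8 CPM in sh1 and 61.0, 62.1 and 60.6 CPM in sh3. The sh1 libraries are the highest, and the sh3 libraries lie only just above shNC replicate 3, the highest control. The values were 0.49 ± 0.06 (edgeR, adjusted p = 4.6e-05) in sh1 and 0.21 ± 0.06 (edgeR, adjusted p = 0.023) in sh3, and sh3 differed from sh1 by -0.28 ± 0.06 (edgeR, adjusted p = 0.0049). The sh3 call of FANCD2 was lost without shNC replicate 1 or 2 or sh3 replicate 1 or 2. FANCI rose by 0.49 ± 0.04 (edgeR, adjusted p = 3e-06) and 0.28 ± 0.04 (edgeR, adjusted p = 0.00047), from 133 CPM in shNC to 187 CPM in sh1 and 162 CPM in sh3. BRIP1 (chr17:61679139-61863559, minus strand), the helicase that binds BRCA1 and is also a Fanconi gene, was at 34.1, 34.8 and 39.6 CPM in shNC, 48.6, 50.1 and 48.3 CPM in sh1 and 37.1, 37.1 and 38.7 CPM in sh3. It was raised in the sh1 libraries, while the sh3 libraries lie inside the control range. The values were 0.44 ± 0.06 (edgeR, adjusted p = 7.3e-05) in sh1, 0.06 ± 0.06 (edgeR, adjusted p = 0.53) in sh3 and -0.38 ± 0.06 (edgeR, adjusted p = 0.00046) for sh3 against sh1.

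**Figure D2:**
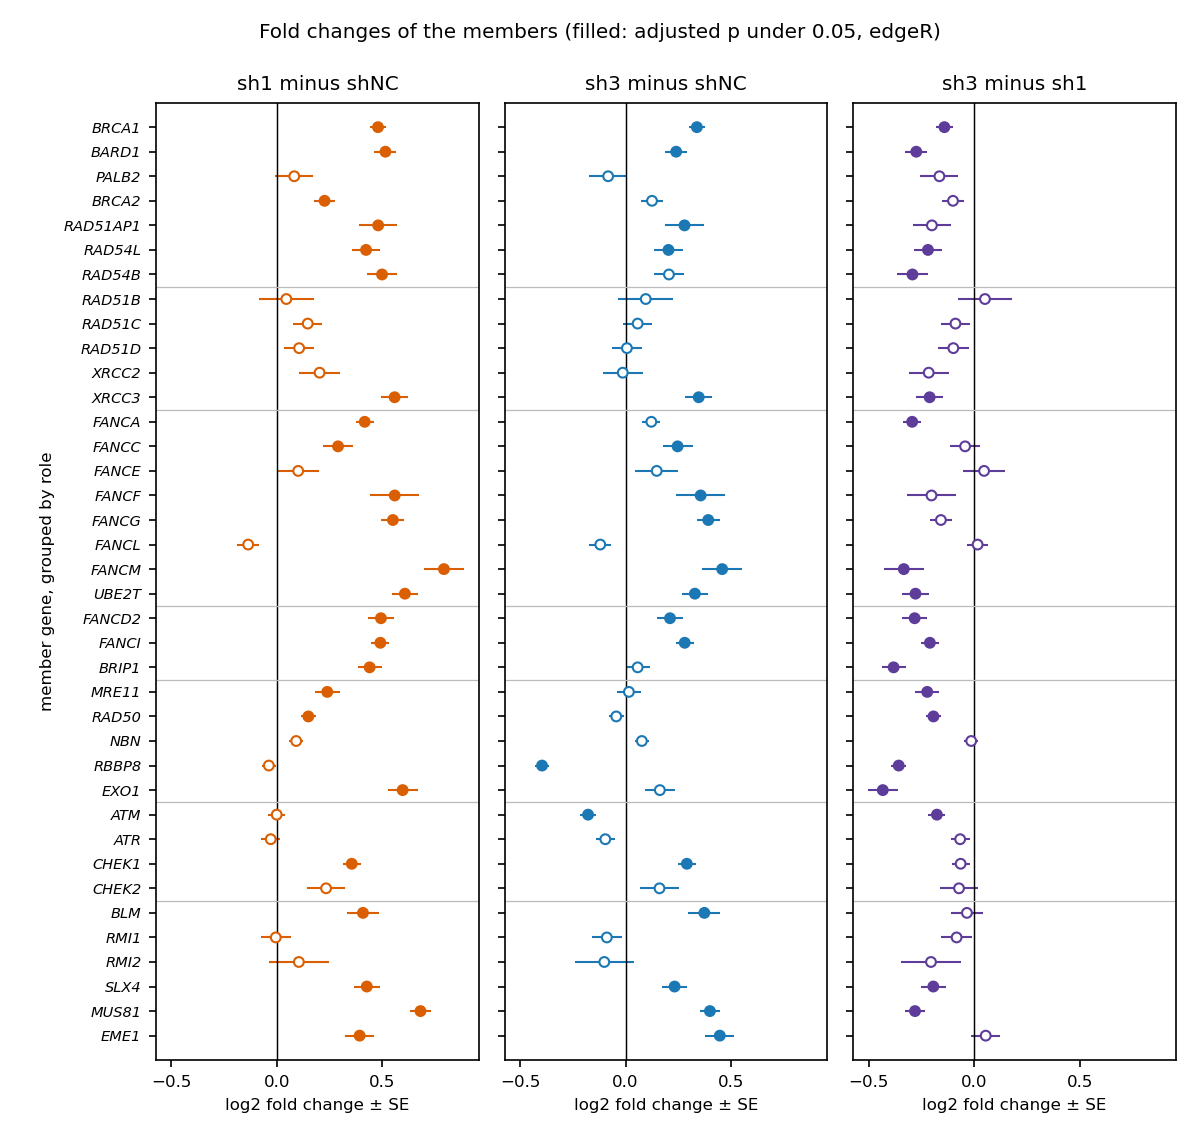
Log2 fold change ± standard error of each of the 38 genes in sh1 against shNC (left), sh3 against shNC (middle) and sh3 against sh1 (right), filled where the edgeR adjusted p is under 0.05, with grey lines between roles. All filled points of the left panel lie above 0, RBBP8 and ATM are the filled points below 0 in the middle, and all 18 filled points on the right lie below 0.

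Of the 5 genes of break sensing and end resection 4 were lower in sh3 than in sh1. In sh1 3 of 5 rose against shNC, while in sh3 none rose and 1 fell. EXO1 (chr1:241847967-241895148, plus strand), a long-range resection exonuclease, was at 22.4, 24.9 and 24.3 CPM in shNC, 33.1, 39.7 and 35.6 CPM in sh1 and 26.1, 27.9 and 26.3 CPM in sh3. The sh1 libraries are far above the others, and the lowest sh3 library is only slightly above the highest control. Its log2 fold change was 0.60 ± 0.07 (edgeR, adjusted p = 3.5e-05) in sh1, or 1.51-fold, and 0.16 ± 0.07 (edgeR, adjusted p = 0.12) in sh3, and the difference of -0.43 ± 0.07 (edgeR, adjusted p = 0.00083) between sh3 and sh1 had the largest size of the 38 genes. RBBP8 (chr18:22798261-23026488, plus strand), which encodes CtIP and starts resection with the MRE11 nuclease, was at 131, 135 and 124 CPM in shNC, 129.9, 125 and 125 CPM in sh1 and 98.7, 98.4 and 99.6 CPM in sh3. The sh1 libraries overlap the controls and the 3 sh3 libraries lie close together below all others. It was 1.32-fold lower in sh3, a log2 fold change of -0.40 ± 0.04 (edgeR, adjusted p = 8.1e-06), against -0.04 ± 0.03 (edgeR, adjusted p = 0.44) in sh1, and sh3 differed from sh1 by -0.36 ± 0.04 (edgeR, adjusted p = 2e-05). The RBBP8 calls held under all 17 alternatives in both comparisons that use sh3.

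The MRE11 complex, which senses and tethers broken ends, has 3 subunits. MRE11 rose in sh1 by 0.24 ± 0.06 (edgeR, adjusted p = 0.0062) and RAD50 by 0.15 ± 0.04 (edgeR, adjusted p = 0.0061), and in sh3 they were at 0.02 ± 0.06 (edgeR, adjusted p = 0.89) and -0.04 ± 0.04 (edgeR, adjusted p = 0.43). Both were lower in sh3 than in sh1, with -0.22 ± 0.06 (edgeR, adjusted p = 0.015) and -0.19 ± 0.04 (edgeR, adjusted p = 0.0021), and the MRE11 call was lost without sh1 replicate 2 or sh3 replicate 3. NBN, the subunit that recruits ATM, had 0.09 ± 0.03 (edgeR, adjusted p = 0.056) in sh1 and 0.08 ± 0.03 (edgeR, adjusted p = 0.13) in sh3, and the sh1 value passed without shNC replicate 3 or sh3 replicate 1. In limma on log2 FPKM the sh1 call of RAD50 was lost.

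The checkpoint kinases split by gene. CHEK1, the effector of the replication checkpoint, rose from 50.4 CPM in shNC to 64.5 CPM in sh1 and 61.7 CPM in sh3, with 0.35 ± 0.04 (edgeR, adjusted p = 3.9e-05) and 0.29 ± 0.04 (edgeR, adjusted p = 0.00036). ATM, the kinase that answers double-strand breaks, was 1.13-fold lower in sh3, a log2 fold change of -0.18 ± 0.04 (edgeR, adjusted p = 0.0058), and was at -0.001 ± 0.04 (edgeR, adjusted p = 0.99) in sh1. Its sh3 libraries, 51.3 to 53.0 CPM, lie below the 57.0 to 60.5 CPM of shNC and the 57.4 to 60.4 CPM of sh1. Neither ATM call involving sh3 passed in limma on log2 FPKM. ATR, the kinase of stalled forks, did not pass in either group (-0.03 and -0.10), nor did CHEK2, the effector of ATM (0.23 and 0.16), although CHEK2 passed in sh1 without shNC replicate 3.

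Among the genes that process joint molecules, 4 of 6 rose in each knockdown group. MUS81 (chr11:65857126-65866440, plus strand), the nuclease that cuts branched intermediates, was at 40.9, 37.8 and 42.1 CPM in shNC, 64.9, 66.6 and 62.1 CPM in sh1 and 54.0, 53.2 and 52.1 CPM in sh3. The groups are fully separate in the order shNC, sh3, sh1. The log2 fold change of 0.68 ± 0.05 (edgeR, adjusted p = 5.4e-07) in sh1 was 1.60-fold, the one in sh3 was 0.40 ± 0.05 (edgeR, adjusted p = 8.5e-05), and sh3 differed from sh1 by -0.28 ± 0.05 (edgeR, adjusted p = 0.0012). EME1, its non-catalytic partner, was at 20.3, 19.7 and 23.6 CPM in shNC, 27.0, 28.2 and 28.3 CPM in sh1 and 29.8, 29.03 and 27.8 CPM in sh3. Here the knockdown groups overlap, and the values of 0.39 ± 0.07 (edgeR, adjusted p = 0.00075) in sh1 and 0.45 ± 0.07 (edgeR, adjusted p = 0.00054) in sh3 differed by 0.05 ± 0.07 (edgeR, adjusted p = 0.63). BLM was at 21.1, 20.4 and 20.7 CPM in shNC, 30.8, 26.8 and 24.8 CPM in sh1 and 25.6, 27.5 and 27.4 CPM in sh3. The sh1 libraries spread widely, from below the sh3 range to above it, with 0.41 ± 0.08 (edgeR, adjusted p = 0.001) and 0.37 ± 0.08 (edgeR, adjusted p = 0.0032). SLX4, the nuclease scaffold, rose by 0.43 ± 0.06 (edgeR, adjusted p = 0.00015) and 0.23 ± 0.06 (edgeR, adjusted p = 0.014), and its sh3 call was lost without shNC replicate 2 or sh3 replicate 2. SLX4 in sh3 differed from sh1 by -0.19 ± 0.06 (edgeR, adjusted p = 0.036). That call was lost under 11 of 17 alternatives, among them leaving out any sh1 or sh3 library. RMI1 and RMI2, the partners of BLM, had log2 values of -0.01 and 0.10 in sh1 and -0.09 and -0.10 in sh3, and none passed.

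Compared per length, with the authors' FPKM values, 36 of the 38 genes had a mean of at least 1 FPKM over the 9 libraries. RBBP8 was the highest in shNC at 23.7 ± 1.1 FPKM (SD, n = 3), followed by UBE2T at 11.7 ± 1.0 FPKM, RAD50 at 9.69 ± 0.14 FPKM and CHEK1 at 8.33 ± 0.35 FPKM. The lowest were ATM at 1.39 ± 0.038 FPKM, RAD51B at 0.671 ± 0.027 FPKM and FANCM at 0.304 ± 0.021 FPKM. In sh3 RBBP8, at 18.0 FPKM, was closer to UBE2T at 14.7 FPKM than in shNC. The order between genes rests on the lengths used, and no source used here gives them. Dividing CPM by FPKM gives lengths of 1.09 to 24.6 times the longest coding transcript of GENCODE v29 (median 2.12), and over 4 times for 5 genes. FANCL is the extreme: an implied 41.75 kb against a transcript of 1.70 kb ranked it 34 of 38 by FPKM, while CPM per kb of that transcript ranked it 2. In shNC RBBP8 ranked 1 and FANCM 38 on both scales. On CPM per kb RBBP8 was not the highest in the knockdown groups: in sh1 it stood at 38.5 against 41.1 for UBE2T and 39.5 for FANCI, and in sh3 at 30.04 against 35.2 for NBN.

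**Figure D3:**
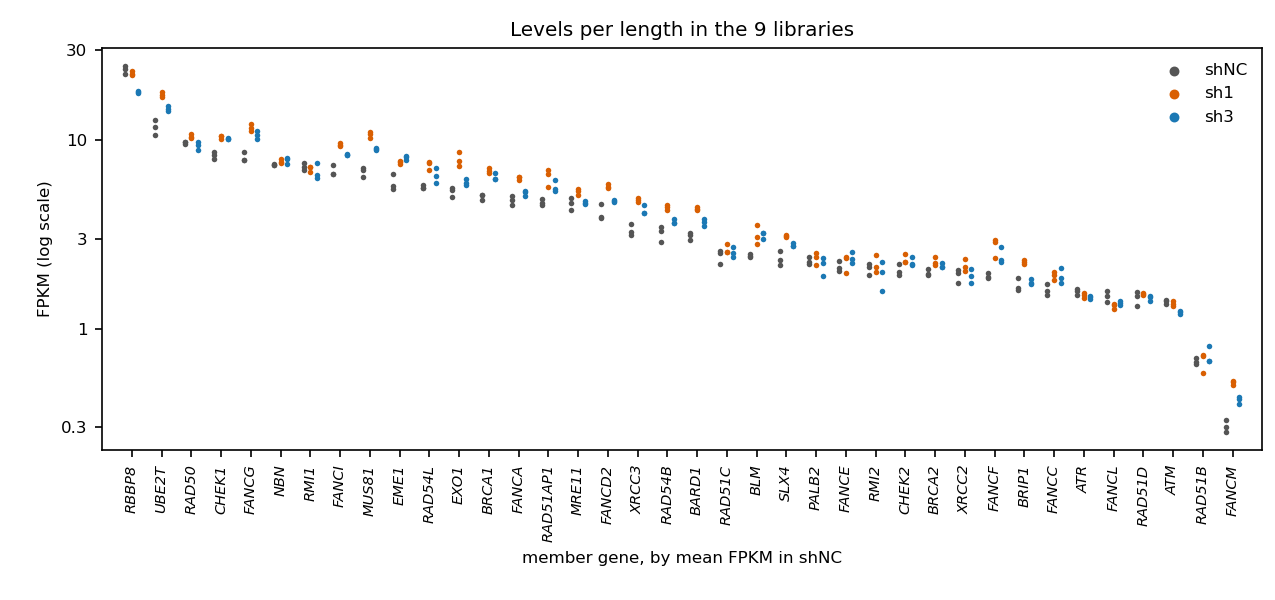
Level of each gene in each of the 9 libraries in the authors' FPKM on a log axis, ordered by the mean of the 3 shNC libraries, with 1 point per library coloured by group. RBBP8 is highest in shNC, with its sh3 points below the others, and FANCM is lowest with its sh1 points highest.

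Other repair genes, from lists that do not include the 38, held both risen and fallen genes. Their counts stand beside 19.9% higher and 18.8% lower over all genes tested in sh1, and 14.4% and 12.4% in sh3. Of 36 further recombination genes 18 rose and 5 fell in sh1 (median 0.26), and 15 rose and 3 fell in sh3 (median 0.12). RECQL4, a RecQ helicase, had the largest rise in sh1 at 0.84 ± 0.06 (edgeR, adjusted p = 5.9e-07), and POLQ, the end-joining polymerase that competes with recombination, rose by 0.64 ± 0.11 (edgeR, adjusted p = 0.00048). EME2, the alternative partner of MUS81, fell in both groups, with -0.61 ± 0.12 (edgeR, adjusted p = 0.0017) and -0.46 ± 0.12 (edgeR, adjusted p = 0.014). SAMHD1, a dNTP hydrolase that also aids resection, fell too, with -0.47 ± 0.05 (edgeR, adjusted p = 1.7e-05) and -0.60 ± 0.05 (edgeR, adjusted p = 6.7e-06). Of 20 further Fanconi and crosslink repair genes 7 rose and 2 fell in sh1, and 8 rose and 2 fell in sh3. MAD2L2, a subunit of polymerase zeta and shieldin, rose by 0.65 ± 0.04 (edgeR, adjusted p = 3e-07) and 0.51 ± 0.04 (edgeR, adjusted p = 5.7e-06), and FAN1, a crosslink nuclease, fell in both, with -0.26 ± 0.05 (edgeR, adjusted p = 0.0015) and -0.18 ± 0.05 (edgeR, adjusted p = 0.021). Of 29 genes of the ATR axis and break-response scaffolds 15 rose and 0 fell in sh1, and 9 rose and 1 fell in sh3. H2AX, the histone phosphorylated at breaks, led them in both groups with 0.74 ± 0.06 (edgeR, adjusted p = 9e-07) and 0.75 ± 0.06 (edgeR, adjusted p = 2.2e-06).

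Other repair routes were counted in the same way, beside the same shares over all genes tested (19.9% and 18.8% in sh1, 14.4% and 12.4% in sh3). For non-homologous end joining, 7 of 17 genes rose and 2 fell in sh1 and 5 rose and 1 fell in sh3. POLM, a gap-filling polymerase, fell in sh1 with -1.15 ± 0.09 (edgeR, adjusted p = 1.7e-06). In sh3 the lowest log2 fold change of any gene on that list was -0.23. Of 7 mismatch repair genes 3 rose and 1 fell in sh1, and 1 rose and 2 fell in sh3. Of 20 base excision genes 9 rose and 2 fell in sh1, and 7 rose and 1 fell in sh3, led by the glycosylase NEIL3 at 0.69 ± 0.07 (edgeR, adjusted p = 7.7e-06) and 0.50 ± 0.07 (edgeR, adjusted p = 0.0002). Of 18 nucleotide excision genes 5 rose and 4 fell in sh1 (27.8% and 22.2%), and 3 rose and 2 fell in sh3 (16.7% and 11.1%). These lie near the shares over all genes. These counts are descriptions, and the lists were not tested against each other.

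Cell cycle genes rose too, beside 19.9% higher and 18.8% lower over all genes tested in sh1 and 14.4% and 12.4% in sh3. Of 40 G2 and mitosis genes 39 rose and 0 fell in each knockdown group, with medians of 0.94 in sh1 and 0.81 in sh3. UBE2C, the conjugating enzyme of the anaphase-promoting complex, rose by 1.30 ± 0.06 (edgeR, adjusted p = 1.3e-08) in sh1 and CDC20, an activator of that complex, by 1.23 ± 0.08 (edgeR, adjusted p = 5.8e-07) in sh3. Of 43 S phase and replication genes 33 rose and 0 fell in sh1 and 17 rose and 1 fell in sh3, with medians of 0.23 and 0.12. Between the knockdown groups 22 of the 43 were lower in sh3 and 3 higher, and 15 of the 40 G2 and mitosis genes were lower and 1 higher. The shares over all genes tested in that comparison were 13% lower and 12.9% higher. In a bulk sample, more cells in a phase and more RNA per cell cannot be told apart, and the part of cell cycle phase in the results for the 38 genes was not tested.

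By library, the mean log2(CPM + 1) of the 38 genes, relative to the shNC mean, was -0.03, -0.01 and 0.05 in shNC, 0.30, 0.31 and 0.30 in sh1 and 0.12, 0.13 and 0.17 in sh3. The same measure for the S phase list was -0.04, -0.01 and 0.05, then 0.26, 0.26 and 0.27, then 0.10, 0.13 and 0.14. On this measure the order of groups was the same and the size nearly so. Median fitted log2 fold changes lay further apart in sh1, at 0.37 for the 38 genes and 0.23 for the S phase list. In sh3 they were 0.16 and 0.12. For the G2 and mitosis list it was -0.09, -0.05 and 0.14 in shNC, 0.91, 0.89 and 0.91 in sh1 and 0.76, 0.78 and 0.77 in sh3. On all 3 lists shNC replicate 3 was the highest control library.

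**Figure D4:**
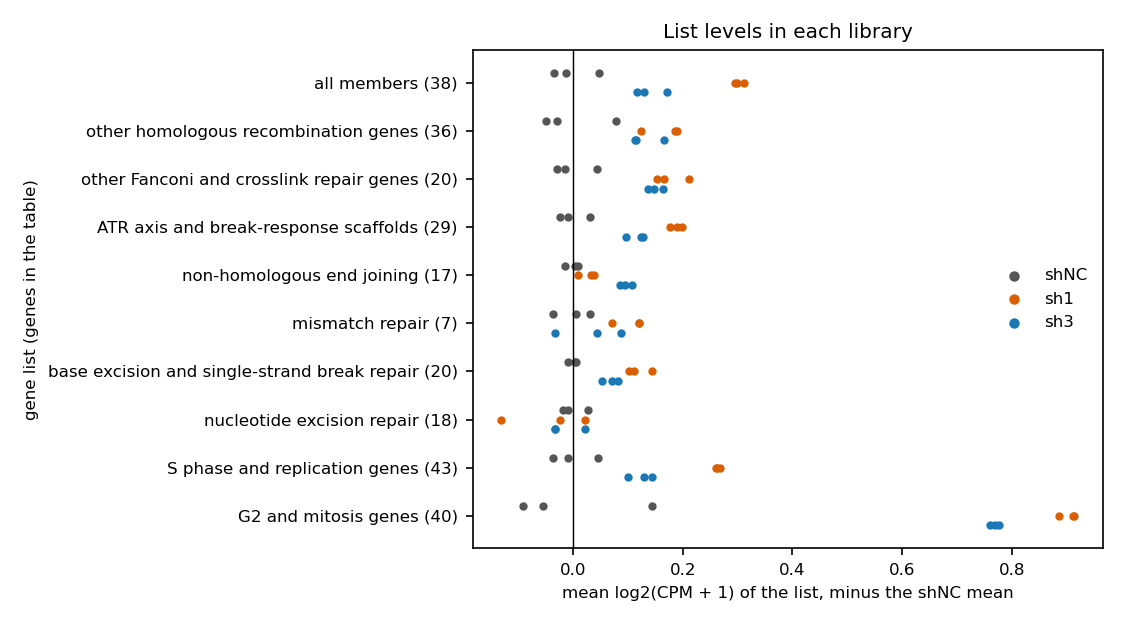
Mean log2(CPM + 1) of each gene list in each of the 9 libraries, minus the mean of the 3 shNC libraries, with 1 point per library and the number of genes in brackets. The 38 genes and the S phase genes show sh1 at about 0.3, sh3 between shNC and sh1, and the G2 and mitosis genes lie far to the right in both knockdown groups.

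Markers of other cell types were low but differed between groups. Among 9 leukocyte markers CD68 was the 1 with a mean of at least 1 FPKM, and their summed level ranged from 13.9 to 15.1 FPKM in shNC, 10.6 to 11.4 FPKM in sh1 and 17.6 to 18.7 FPKM in sh3, with PTPRC and ITGAM at 0 in the mean of all libraries. Of 8 endothelial markers 1 reached it, KDR, with sums of 2.30 to 2.66, 1.20 to 1.56 and 2.87 to 3.08 FPKM. Of 8 fibroblast markers 3 reached it, COL1A1, COL1A2 and LUM, with sums of 15.4 to 19.1, 18.3 to 19.0 and 12.3 to 12.8 FPKM. Their part in the results was not tested.

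Some of the 38 genes have close neighbours whose reads could be confused with theirs or that start from the same promoter region. In the table's coordinates 21 of the 38 overlap another tested gene, 4 of them on the same strand, and for 12 the overlapping gene had a mean of at least 1 FPKM. The libraries marked strand with dUTP, but no source used here tells if the counting used it, so values of such genes are uncertain. BRCA1, FANCA, FANCI, XRCC3, MUS81, EME1 and RAD54B are among them. The overlapping genes with the highest levels were CFL1 and LRRC59, both on the other strand. CFL1 (122 FPKM) overlaps MUS81 by 4901 bp, with log2 fold changes of 0.17 in sh1 and 0.17 in sh3. LRRC59 (68.4 FPKM) overlaps EME1 by 6425 bp, with 0.52 in sh1 and 0.23 in sh3. Partners were tested genes on the opposite strand that start within 1000 bp upstream. Those starting inside the gene were left out. Such a partner stood beside 13 of the 38 (34.2%), against 3166 of 21296 genes tested (14.9%). Of these 13 partners 3 were higher in both knockdown groups, 1 was called in sh1 alone and 9 were called in neither. Over all genes tested 19.9% were called higher in sh1 and 14.4% in sh3. Whether partners rose more often than other genes was not tested. FKBP3, an immunophilin whose start lies 611 bp from that of FANCM, rose with it (0.49 ± 0.06, edgeR, adjusted p = 7.1e-05 in sh1, and 0.36 ± 0.06, adjusted p = 0.0015 in sh3). C12orf4, beside RAD51AP1, and ZFYVE21, beside XRCC3, also rose in both groups, C12orf4 by 0.26 and 0.30 and ZFYVE21 by 0.22 and 0.17 on the log2 scale. DNASE1 beside SLX4 (-0.02 and 0.12) and MRPL27 beside EME1 (0.13 and 0.09) did not pass, although SLX4 and EME1 rose in both groups. NBR1, whose start lies 236 bp from that given for BRCA1, fell in sh1 by 0.42 on the log2 scale (edgeR, adjusted p = 3e-07) while BRCA1 rose. The table's span of BRCA1 also overlaps NBR2 on the other strand, by 28121 bp. NBR2 had log2 fold changes of -0.41 in sh1 and -0.23 in sh3. Which start of BRCA1 these cells use was not tested.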

How the data were processed

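RNA of the 9 SKOV3 libraries was poly(A)-selected, marked by strand with dUTP and sequenced in pairs, per the labels' protocols. The submitters' processing notes name GRCh38 and the tools edgeR, DESeq2, StringTie 2.1.6, HISAT2 2.2.1 and cutadapt 1.9, with no role, setting or annotation. The authors deposited 1 table of whole-number counts per gene and library, not normalized, with FPKM values that the authors scaled by gene length and library size.

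The counts were tested with edgeR 4.0.16 (filterByExpr, minimum count 10, TMM, glmQLFit, glmQLFTest, R 4.3.3), with 1 mean per group over 9 libraries. A gene was called at a two-sided Benjamini-Hochberg adjusted p under 0.05 over the 21296 genes tested, and SE was the absolute log2 fold change over the square root of F. The fit was tested on simulated counts with 200 changed genes. No library was a copy of another (chi-square over degrees of freedom 8.51 to 17.3 between replicates). The largest values, 15.6 and 17.3, were those of shNC replicate 3 with shNC replicates 1 and 2, and the other pairs reached at most 10.3. FPKM served for levels between genes. Depth limits precision: 3 counts equal 0.0433 to 0.052 CPM. Alternatives were DESeq2 1.42.0, no filter, library totals, a replicate block, limma 3.58.1 on log2 FPKM plus 1 or 0.1, 2 groups only, each library left out, and an adjusted p under 0.01.

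The members and lists were chosen with earlier results of these data known. Members given library by library were the 6 called with the largest change in each comparison at a mean of 1 FPKM or more, with BRCA1 and BRCA2. From other lists at most 2 called genes per direction and comparison were eligible.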

Additional observations from a re-analysis of the deposited data

Results flagged for a closer look

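For 8 genes the test of sh3 against sh1 passed while only 1 of the knockdown groups passed against shNC. In log2 units, sh3 minus sh1 was -0.43 for EXO1, -0.38 for BRIP1, -0.29 for FANCA, -0.29 for RAD54B, -0.22 for MRE11 and -0.19 for RAD50, all called higher in sh1 alone. It was -0.36 for RBBP8 and -0.18 for ATM, both called lower in sh3 alone. The edgeR adjusted p of these differences ran from 2e-05 for RBBP8 to 0.015 for MRE11. DESeq2 called FANCA and RAD54B higher in sh3 against shNC too.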

How the results depend on the processing

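No call reversed under any of the 17 alternatives, and 32, 26 and 28 of the 38 genes kept their status under all of them in sh1 against shNC, sh3 against shNC and sh3 against sh1. Genes lower in sh1 numbered 1 in place of 0 with DESeq2 and with library totals, and 0 to 1 when 1 library was left out (FANCL, without shNC replicate 3). Genes higher in sh3 numbered 11 to 17 with 1 library left out, lowest without shNC replicate 2, and 11 at an adjusted p under 0.01. Genes lower in sh3 numbered 1 in limma with either pseudocount, as ATM no longer passed. Genes lower in sh3 than in sh1 numbered 11 in limma with a pseudocount of 1 and 11 at an adjusted p under 0.01, and 13 to 19 with 1 library left out. For sh3 and sh1, why these counts fell with limma was not tested. Replicate numbers did not pair the libraries (9 correlations of same-numbered deviations, -0.03 to 0.02), and with the replicate block the counts were 25 higher and 0 lower in sh1, 16 and 2 in sh3, and 0 and 18 between them. Depth limits RAD51B, RMI2, FANCF and FANCM most, the genes with the fewest counts.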
